A study of Mus musculus with 2 samples.

Results

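The genes described here are the sensors, transcription factors and feedback genes of the unfolded protein response and the integrated stress response: Atf4, Ddit3, Xbp1, Atf6, Ern1, Eif2ak3, Eif2ak4, Ppp1r15a, Trib3 and Herpud1. They were chosen by name as genes of these pathways, with earlier results of these data known, and are 10 of the 43346 genes in each gene table. All 10 were found by symbol. Their levels were measured by total RNA-seq of HSC (hematopoietic stem cells of the mouse), which renew themselves in the marrow and form every blood lineage. The cells came from adult C57BL/6J males of 5 to 6 weeks for which the labels name no treatment, and ribosomal RNA was depleted from 100 ng of RNA before ScriptSeq library preparation, per the labels. There was 1 group of 2 biological replicates, with no other genotype, treatment or cell type beside it. The labels name separate biosamples and a shared donor entry, and neither the surface markers of the isolation nor the number of animals pooled is stated in them. The spread between the 2 libraries may therefore be technical.

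Cells read misfolded protein in the endoplasmic reticulum (ER) through 3 sensors in its membrane: PERK, encoded by Eif2ak3, IRE1 alpha, encoded by Ern1, and ATF6. PERK and GCN2, the amino acid sensor encoded by Eif2ak4, phosphorylate the translation initiation factor eIF2, which lowers protein synthesis as a whole while ATF4 is still translated. ATF4 then switches on amino acid, redox and feedback genes, while IRE1 removes a short intron from Xbp1 RNA and cleaved ATF6 raises chaperones and degradation factors. Much of this control acts on translation, RNA splicing or protein cleavage, which RNA levels do not measure. In HSC the pathway is known for its role in the response to protein folding stress and in the survival or loss of stressed stem cells.

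Replicate 1 held 27901074 expected counts and replicate 2 held 48490188, so that 3 counts, the limit that a count of 0 allows, corresponded to 0.108 and 0.0619 CPM, the count scaled to the library total. These floors cover counting error only. Protein-coding genes took 16.3% of TPM (a level per transcript length, scaled to a constant sum) in replicate 1 and 20.3% in replicate 2. Of 10 HSC markers, 9 reached 1 TPM in both libraries, and Slamf1 lay at 0.42 and 0.43 TPM. The 8 neutrophil and granulocyte markers were all above 1 TPM in both, and their summed level was 3025 TPM in replicate 1 against 1117 in replicate 2. The 8 monocyte markers summed to 368 and 171 TPM, with 4 detected, and the 9 erythroid markers to 32.9 and 114 TPM, with 5 detected. Lyz2 alone gave 334 and 153 TPM of the monocyte sums, and Car1 gave 9.74 and 66.9 TPM of the erythroid sums. In TPM 7 of the 9 erythroid markers were higher in replicate 2, while Hbb-bs went the other way at 4.59 and 3.23 TPM. Plasma cells and mast cells, secretory cells with a high load on the ER, were covered by 8 and 6 markers, which summed to 17.8 and 13.9 TPM and to 27.8 and 15.4 TPM. Against these sums, 2 of the 8 plasma cell markers were higher in replicate 2, among them Fkbp11 at 0.84 and 2.33 TPM. The same held for 1 of the 6 mast cell markers, Gata2, at 3.98 and 5.47 TPM. The 7 B cell markers summed to 5.11 and 3.26 TPM, nearly all of it from Cd79b with 442 and 432 counts, the only one of them detected, and 3 had 0 counts in both libraries. The libraries thus differed in markers of other blood cells, and the part of these cells in the levels below was not tested. In bulk RNA, fewer cells of a type and less RNA per cell cannot be told apart.

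All members but Trib3 were detected, taken as at least 1 TPM in both libraries, which made 9 of 10. Of 21474 protein-coding genes, 44.0% met the same rule. The median level of the 10 genes was 7.34 TPM in replicate 1 and 12.4 TPM in replicate 2, while that of all coding genes was 0.51 and 0.53 TPM. The replicate 2 median lay between Ddit3 at 11.4 TPM and Ern1 at 13.5 TPM. Of that Ern1 level, 8.57 TPM came from transcripts other than the full-length Ern1-201. The order, from the highest mean, was Atf4, Ppp1r15a, Xbp1, Herpud1, Ddit3, Ern1, Atf6, Eif2ak4, Eif2ak3 and Trib3. By mean level the 4 sensors Ern1, Atf6, Eif2ak4 and Eif2ak3 lay beneath the other members except Trib3, although Ern1 exceeded Ddit3 in replicate 2. Of the 45 pairs of members, 42 had the same direction in both libraries with deposited interval bounds that did not overlap in either. The 3 pairs without a clear order were Xbp1 with Herpud1, Ddit3 with Ern1, and Atf6 with Eif2ak4. Xbp1 was 1.07-fold above Herpud1 in replicate 1 and 1.33-fold above it in replicate 2. Ddit3 was 1.52-fold above Ern1 in replicate 1, whereas Ern1 was 1.18-fold above Ddit3 in replicate 2.

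**Figure D1:**
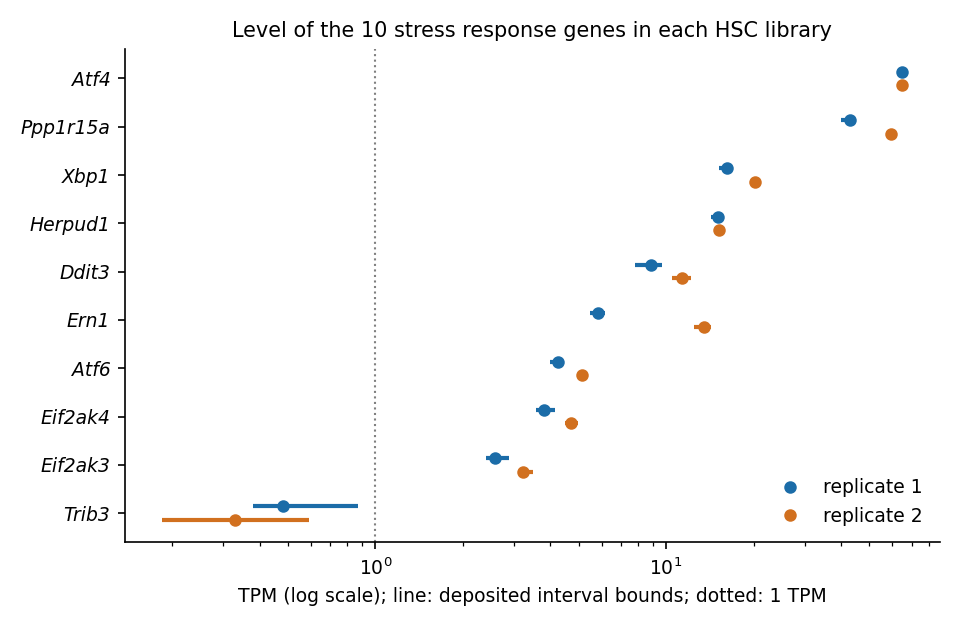
TPM of each of the 10 genes on a log axis, 1 point per HSC library, with lines for the deposited interval bounds and a dotted line at 1 TPM. Atf4 and Ppp1r15a lie highest, between 43.1 and 64.8 TPM, Trib3 is the one gene left of the dotted line, and Ern1 shows the widest gap between the replicates.

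The sensors ran from Eif2ak3, at 2.58 and 3.22 TPM, to Ern1, which stood 2.26-fold above it in replicate 1 and 4.19-fold above it in replicate 2. The place of Ern1 in the order rests in part on short transcripts. Its full-length transcript Ern1-201 alone lay at 4.98 and 4.92 TPM, above the Atf6 gene level in replicate 1 (4.24 TPM) and below it in replicate 2 (5.15 TPM). Ern1 (ENSMUSG00000020715, GRCm38 chr11:106394650-106487852, minus strand) encodes the kinase and endoribonuclease IRE1 alpha. Its gene level was 5.82 TPM (bounds 5.47 to 6.15, 2958 counts) in replicate 1 and 13.5 TPM (12.5 to 14.3, 4945 counts) in replicate 2, with a mean of 9.66 ± 5.42 (SD, n = 2). The gene values did not overlap, but the counts were 106 and 102 CPM, nearly level. Ern2, the IRE1 beta gene of mucosal epithelium, had 0 counts in both libraries.

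Atf6 (ENSMUSG00000026663, chr1:170704674-170867771, minus strand) encodes the sensor that is cut in the Golgi to free a transcription factor. It lay at 4.24 TPM (3.98 to 4.37, 2261 counts) and 5.15 TPM (4.95 to 5.27, 4402 counts), a mean of 4.70 ± 0.643 (SD, n = 2). Its paralog Atf6b lay at 1.99 and 4.09 TPM. Atf6 was thus higher than Atf6b in both libraries, by 2.13-fold in replicate 1 and 1.26-fold in replicate 2.

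The kinases of eIF2 kept 1 order in both libraries. Eif2ak2, encoding the double-stranded RNA sensor PKR, was highest at 12.3 and 14.4 TPM, followed by Eif2ak1, the heme-regulated kinase HRI, at 4.99 and 7.10 TPM. The member Eif2ak4 (ENSMUSG00000005102, chr2:118388618-118475234, plus strand) came next at 3.80 TPM (3.56 to 4.16, 1328 counts) and 4.71 TPM (4.49 to 4.96, 2563 counts), with a mean of 4.26 ± 0.643 (SD, n = 2). Eif2ak3 (ENSMUSG00000031668, chr6:70844515-70905245, plus strand) was the lowest at 2.58 TPM (2.40 to 2.88, 897 counts) and 3.22 TPM (3.09 to 3.48, 1785 counts), a mean of 2.90 ± 0.453 (SD, n = 2). PERK, the ER sensor, therefore had the least RNA of the 4 kinase genes, 4.79-fold and 4.47-fold less than PKR. All 6 pairs of these kinases had bounds apart in both libraries.

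Xbp1 (ENSMUSG00000020484, chr11:5520659-5525893, plus strand) encodes the transcription factor that IRE1 activates. Its level was 16.2 TPM (15.3 to 16.7, 2293 counts) in replicate 1 and 20.2 TPM (19.4 to 20.7, 4424 counts) in replicate 2, with a mean of 18.2 ± 2.83 (SD, n = 2). It lay at percentiles 92.2 and 92.0 of coding genes. The RNA stretch that IRE1 cuts out lies inside exon 4 of 5 of transcript Xbp1-201, within the coding sequence, and is shown because it decides which Xbp1 protein is made. The sequence below is GRCm38 chr11:5524259-5524324, plus strand, read from the GENCODE transcript, and the capitals mark the 26 bases removed (chr11:5524279-5524304).
Xbp1 IRE1 intron: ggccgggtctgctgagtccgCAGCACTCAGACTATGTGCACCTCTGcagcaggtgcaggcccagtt
With the 26 bases in place the reading frame of Xbp1-201 has 267 codons, and without them it shifts and runs for 371 codons. The transcripts Xbp1-201, Xbp1-203 and Xbp1-204 all hold the 26 bases, and none of the annotated Xbp1 transcripts has them removed. Those 3 transcripts made up 87.6% of Xbp1 TPM in replicate 1 and 93.9% in replicate 2. The tables therefore give the sum of cut and uncut Xbp1 RNA, and the active form was not measured apart.

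Among the factors downstream of eIF2, Atf4 (ENSMUSG00000042406, chr15:80255184-80257541, plus strand), the central transcription factor of the integrated stress response, was the highest member. It measured 64.8 TPM (62.3 to 65.0, 8574 counts) and 64.6 TPM (62.9 to 65.2, 12413 counts), a mean of 64.7 ± 0.127 (SD, n = 2), at percentiles 98.5 and 98.0 of coding genes. The replicates overlapped in their bounds. Ddit3 (ENSMUSG00000025408, chr10:127290774-127296288, plus strand) encodes CHOP, a factor tied to cell death after long stress. It measured 8.86 TPM (7.83 to 9.67, 463 counts) and 11.4 TPM (10.5 to 12.2, 883 counts), a mean of 10.1 ± 1.79 (SD, n = 2). The CHOP gene thus had 7.32-fold and 5.67-fold less RNA per length than Atf4. Its last bases overlap Mars, the methionyl-tRNA synthetase gene, on the opposite strand (chr10:127296221-127311786), which had 1568 and 3769 counts. The sources used here do not say whether the counting used strand, so reads in that overlap are uncertain.

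The feedback genes lay at opposite ends of the range. Ppp1r15a (ENSMUSG00000040435, chr7:45522916-45526268, minus strand) encodes GADD34, which guides a phosphatase to eIF2 and so restores translation. It measured 43.1 TPM (40.1 to 44.9, 6457 counts) and 59.2 TPM (57.2 to 61.1, 16157 counts), a mean of 51.2 ± 11.4 (SD, n = 2), with replicate 2 above replicate 1. Ppp1r15b, the partner of the same phosphatase that unstressed cells use, lay at 13.4 and 17.6 TPM. By gene level the stress-inducible form was thus 3.21-fold and 3.37-fold higher than the constitutive one. Of the Ppp1r15a level, 9.94 TPM in replicate 1 and 1.23 TPM in replicate 2 came from a transcript of 389 bases. That transcript rested on 170 and 24.2 counts. The main transcript Ppp1r15a-201 alone lay at 29.3 and 51.25 TPM, still above Ppp1r15b in both libraries. Trib3 (ENSMUSG00000032715, chr2:152337422-152344032, minus strand), a pseudokinase induced by ATF4 and CHOP, had 66 counts in replicate 1 and 42 in replicate 2. Its level was 0.48 TPM (0.378 to 0.872) and 0.33 TPM (0.184 to 0.591), a mean of 0.405 ± 0.106 (SD, n = 2), and the bounds overlapped. In CPM these counts were 2.37 and 0.866, both above the floors. Its relatives Trib1, at 2.80 and 5.29 TPM, and Trib2, at 1.03 and 1.91 TPM, were higher in both libraries.

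Herpud1 (ENSMUSG00000031770, chr8:94386438-94395377, plus strand) encodes HERP, an ER membrane protein that helps assemble the complex that removes misfolded proteins. It measured 15.2 TPM (14.3 to 15.8, 2117 counts) and 15.3 TPM (14.6 to 16.0, 2890 counts), with a mean of 15.2 ± 0.0778 (SD, n = 2), and the replicates overlapped. Herpud2 lay lower at 3.23 and 3.93 TPM. Herpud1 was 1 of 2 members with an exact match to a stress element in the RefSeq promoter windows. These windows run from 250 bases before the start to 50 after it on GRCm38.p6 and were found for 9 of the 10 genes. Both strands were searched for 4 motifs: ERSE (CCAAT, 9 bases, CCACG), ERSE-II (ATTGG, 1 base, CCACG), UPRE (TGACGTGG) and the C/EBP-ATF element CARE (TGATGNAA). Of 32851 windows, 0.119% held ERSE, 0.0365% ERSE-II, 0.676% UPRE and 3.97% CARE. The Herpud1 stretch chr8:94386292-94386412, plus strand, is shown because it holds ERSE-II, the rarest of the 4, and CARE, both in capitals.
Herpud1 promoter: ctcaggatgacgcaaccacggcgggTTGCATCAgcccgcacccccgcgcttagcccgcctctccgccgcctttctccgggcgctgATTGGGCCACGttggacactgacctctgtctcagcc
ERSE-II lay 52 to 42 bases before the Herpud1 start on the plus strand, and CARE 112 to 105 bases before it on the minus strand. Trib3 held CARE after its start. A match is a run of letters and not a measured binding site. Only exact matches inside the windows were counted, so a member without one may hold a variant or a site elsewhere.

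Translation of several of these genes is known to be controlled by short reading frames upstream of the start codon, so the leader of the leading coding transcript of each gene was read from the GENCODE transcripts. Upstream ATG codons were present in 5 of the 10 leaders, against 47.1% of 9830 coding genes with a mean of at least 1 TPM. An upstream frame that runs past the start codon out of frame was present in 2 of 10, Atf4 and Eif2ak3, against 15.5% of those genes. Atf4-201 had a leader of 594 bases with 3 upstream ATG codons. The last of these opens a frame of 59 codons that starts 97 bases before the Atf4 start codon and ends 83 bases past it. Eif2ak3-201 had 3 upstream ATG codons in 211 bases, and its longest frame, of 154 codons, ends 269 bases past the start. Ppp1r15a-201 had 3 in 283 bases, with frames of 45, 34 and 26 codons that all end before the start. Ddit3-201 had 2 in 186 bases, of 34 and 31 codons, and Xbp1-201 had 1 of 18 codons in 336 bases. The leaders of Ern1, Atf6, Eif2ak4, Herpud1 and Trib3, of 70 to 176 bases, had 0. Trib3 is among the 10 although its mean was below 1 TPM.

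**Figure D2:**
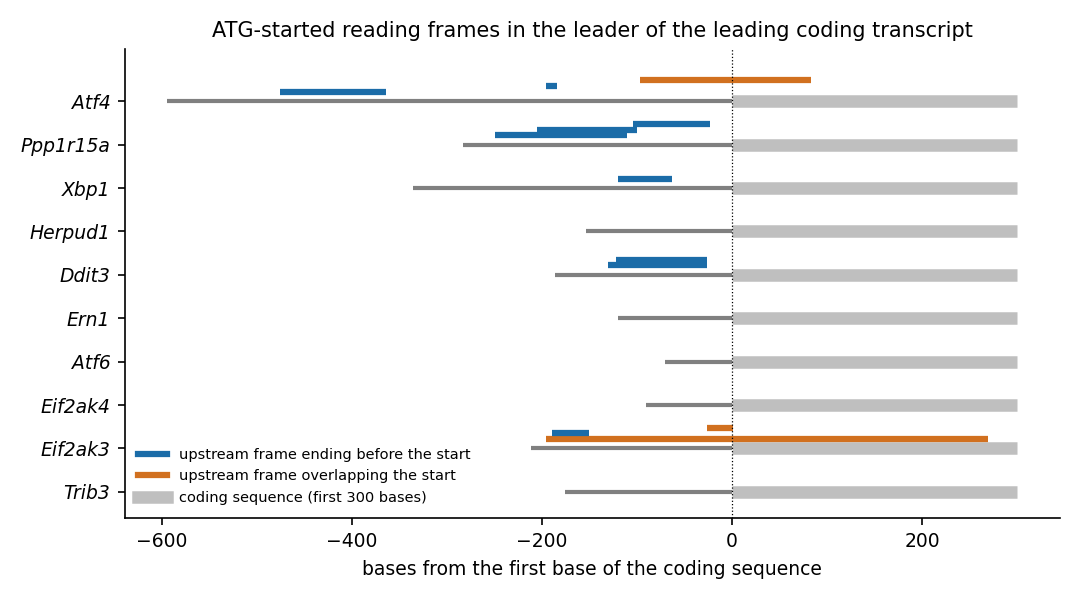
Leaders of the leading coding transcript of the 10 genes, drawn to scale in bases from the start codon, with the upstream reading frames as bars. Frames that cross the start codon are seen in Atf4 and Eif2ak3, while those of Ppp1r15a, Ddit3 and Xbp1 end before it.

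The members had 39 annotated transcripts, and the same transcript led in both libraries for 6 of the 10 genes. Among members with at least 2 transcripts and a mean of at least 1 TPM this held for 5 of 8, against 74.0% of 7414 such coding genes. Atf4-201 held 100% of Atf4 in both libraries. Herpud1-205 held 88.8% and 80.3%, Xbp1-201 73.5% and 83.2%, Atf6-201 82.8% and 91.9%, Eif2ak3-201 90.8% and 100%, and Ppp1r15a-201 68.1% and 86.6%. In these 6 genes the leading transcript was a protein-coding one. Ddit3 was split among Ddit3-201 at 35.4% and 37.9%, Ddit3-203 at 39.1% and 26.5%, and Ddit3-202, a transcript that retains an intron, at 25.5% and 35.7%. Eif2ak4 was led by Eif2ak4-206 in replicate 1, at 38.3% against 0% in replicate 2, and by Eif2ak4-201 in replicate 2, at 71.7% against 17.4%. Trib3-201 held 83.8% and 46.5%, but the rest rested on 2.11 and 6.06 counts of the intron-retaining Trib3-203. Of 6 genes with an annotated intron-retaining transcript, 5 had a share above 0 in both libraries. With a mean of at least 1 TPM these were 4 of 5, against 74.7% of 4306 such coding genes. Total RNA contains unprocessed transcripts, and the part of these in the shares was not tested.

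The leading Ern1 transcript differed between the libraries. Ern1-201, of 6946 bases, held 2907 counts and 4.98 TPM in replicate 1 and 4283 counts and 4.92 TPM in replicate 2. In TPM the full-length transcript was thus level. Ern1-203, of 654 bases, had 0 counts in replicate 1 and 324 in replicate 2, where it was given 6.08 TPM and 45.05% of the gene. All transcripts other than Ern1-201 held 1.73% of Ern1 counts in replicate 1 and 13.4% in replicate 2, but 14.3% and 63.5% of its TPM. The effective length of the gene, by which counts are divided, was 5890 bases in replicate 1 and 2824 in replicate 2. The labels give a library size range of 172 to 1452 for replicate 1 and 232 to 1000 for replicate 2, and the part of this difference in the Ern1-203 value was not tested.

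**Figure D3:**
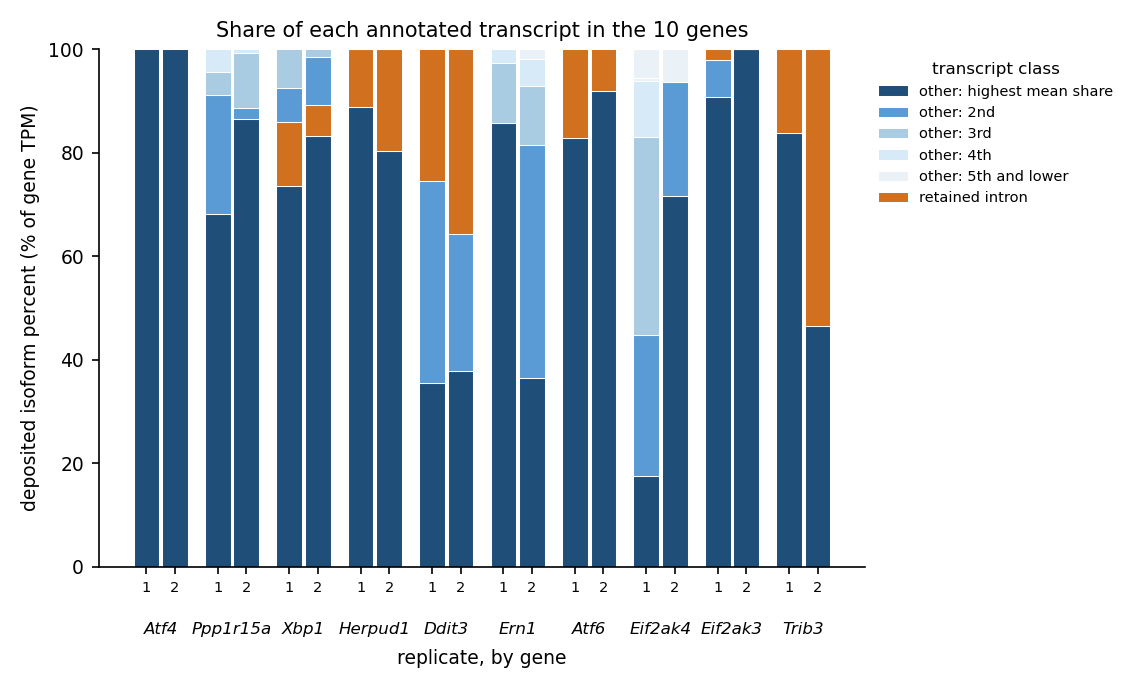
Deposited isoform percent of each annotated transcript, stacked to 100% for each gene and replicate, with intron-retaining transcripts in orange and the others in blue shades by mean share. Atf4 is a single block, whereas Ern1-201 takes 85.7% in replicate 1 and 36.5% in replicate 2, and Eif2ak4-201 takes 17.4% and 71.7%.

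Between the replicates, 1 of the 9 members with a mean of at least 1 TPM was apart, taken as more than 2-fold in TPM with bounds that did not overlap. It was Ern1, 2.32-fold higher in replicate 2, and 12.4% of 11018 genes with that mean were apart by the same rule. When the counts were scaled by TMM instead, which ignores transcript lengths, 0 of the 9 members differed by over 2-fold, against 10.1% of the 11018 genes, and the Ern1 ratio (replicate 2 over replicate 1) became -0.06 in log2. Bounds alone, with no fold, did not overlap for 7 members and for 70.7% of those genes. With 1 group of 2 libraries there was 1 library on each side of this comparison, so no test of a difference was possible.

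Going from TPM to TMM-scaled counts changed the size of several differences, and it changed the direction for Ern1 and Herpud1. Log2 ratios were taken after adding 0.1 to each value, which understates differences of low genes, while folds are plain ratios. In TPM the median log2 ratio of 9900 coding genes with a mean of at least 1 TPM was 0.29, and in TMM-scaled counts it was 0.04. The 10 members include Trib3, which lies below that mean. The ratio of the members was above 0 for 8 of 10 in TPM, where 74.0% of coding genes were, and for 6 of 10 in TMM-scaled counts, where 54.2% were. With TPM rescaled over protein-coding genes it was above 0 for 5 of 10, where 48.5% were. On that scale Atf6 and Eif2ak4 also fell just below 0, at -0.036 and -0.0067, whereas Ern1 stayed above 0. Ppp1r15a was higher in replicate 2 on both scales, by 1.37-fold and 1.43-fold. With TPM rescaled over protein-coding genes the Ppp1r15a log2 ratio was smaller, at 0.14. The transcript Ppp1r15a-201 alone lay at 29.3 and 51.25 TPM, a wider gap than that of the gene level. Atf4 and Herpud1, level in TPM, had TMM ratios of -0.27 and -0.35. Trib3 was lower in replicate 2 on both scales, at -0.43 and -1.36, on 66 and 42 counts. All other members lay between 0.13 and 0.19 on the TMM scale, except Ern1. Granulocyte markers were higher in replicate 1 beside these differences, and their part in them was not tested.

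**Figure D4:**
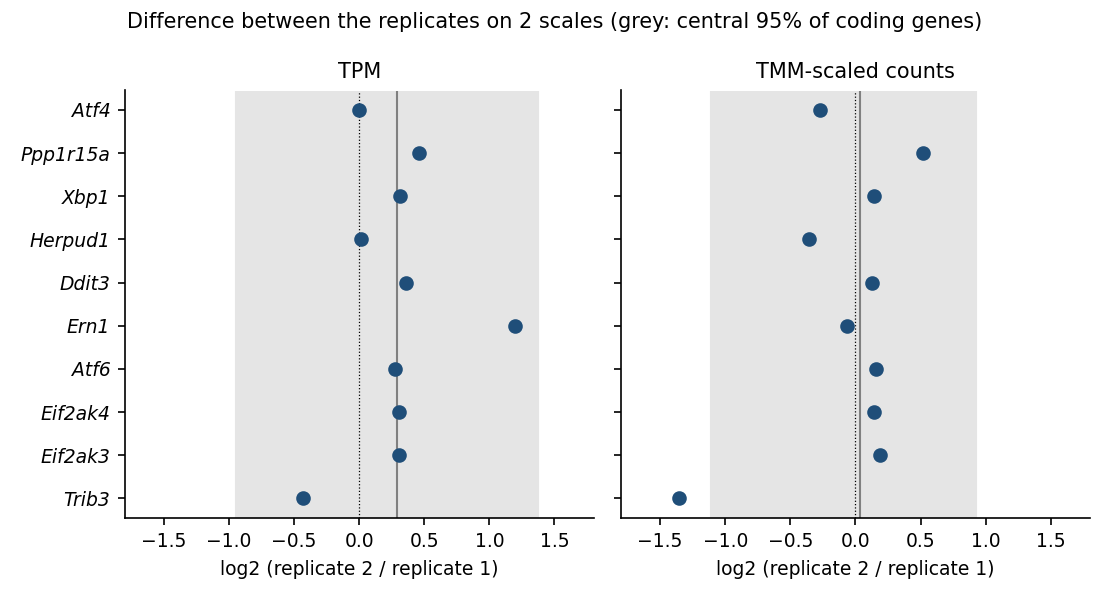
Log2 ratio of replicate 2 over replicate 1 for the 10 genes, in TPM on the left and in TMM-scaled counts on the right. Grey marks the central 95% of coding genes with a mean of at least 1 TPM, and a line their median. Ern1 moves from 1.20 on the left to -0.06 on the right, and Trib3 lies furthest to the left in TMM-scaled counts at -1.36.

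Around the members, 121 other genes of the pathway were grouped in 8 lists, of which 100 reached 1 TPM in both libraries. Of all 21474 protein-coding genes, 44.0% did so. ER chaperones had the highest median of the 8 lists, with 21 of 21 detected and a value of 23.1 TPM. They were led by Calr, a calcium-binding lectin chaperone, at 239 and 385 TPM, Hspa5, the chaperone BiP that holds the sensors inactive, at 131 and 194 TPM, Canx at 116 and 191 TPM and Hsp90b1 at 83.9 and 128 TPM. The oxidases Ero1l, at 3.31 and 3.62 TPM, and Ero1lb, at 1.55 and 1.51 TPM, were the lowest. The BiP gene thus stood well above every member. Of 21 ER-associated degradation genes, 20 were detected with a median of 7.23 TPM, from the ATPase gene Vcp at 45.02 and 56.3 TPM, Os9 at 17.5 and 29.6 TPM and Ubxn4 at 14.2 and 26.9 TPM down to Syvn1 at 1.51 and 1.35 TPM and Derl3 at 0.09 and 0.62 TPM.

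The list of eIF2 kinases, eIF2 and eIF2B subunits and their regulators had 14 of 14 genes detected, with a median of 12.4 TPM. The eIF2 subunit genes Eif2s3x, at 26.1 and 49.1 TPM, and Eif2s2, at 27.1 and 39.2 TPM, were highest, then Eif2b2 at 12.8 and 19.4 TPM and Eif2s1 at 12.4 and 18.6 TPM. The eIF2B subunit genes Eif2b3, at 5.56 and 4.35 TPM, and Eif2b4, at 1.79 and 3.28 TPM, were lowest. Among 10 transcription factors of the response, 8 were detected, with a median of 6.52 TPM. Fos, at 212 and 234 TPM, and Jun, at 65.6 and 95.6 TPM, led them, followed by Atf3 at 10.2 and 15.4 TPM and Atf2 at 9.07 and 12.5 TPM, while Batf2 lay at 0.90 and 0.67 TPM and Atf5 at 0.53 and 0.64 TPM. Fos and Jun are also immediate early genes that cell handling induces. The 10 immediate early and heat shock genes summed to 415 and 572 TPM, and their part in the levels of Ppp1r15a and Atf4 was not tested.

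The targets of ATF4 covered a wide range, with 18 of 28 detected and a median of 4.83 TPM. The 4 highest were Phgdh, an enzyme gene of serine synthesis, at 70.1 and 97.3 TPM and the tRNA synthetase genes Sars at 34.6 and 93.2 TPM, Eprs at 31.9 and 46.8 TPM and Nars at 22.4 and 36.0 TPM. Cth, an enzyme of cysteine synthesis, had 3 and 0 counts, and Fgf21 had 0 in both libraries. Of the IRE1 branch 10 of 11 genes were detected with a median of 7.62 TPM. They were led by Rtcb, the ligase that joins cut Xbp1 RNA, at 36.2 and 42.9 TPM, Dnajb9 at 17.3 and 28.8 TPM, Mapk8 at 10.7 and 17.5 TPM and Bloc1s1, an IRE1 substrate, at 16.6 and 10.7 TPM. The least abundant detected gene of that branch was Bax at 3.92 and 2.66 TPM. Of the ATF6 branch 5 of 9 were detected with a median of 2.90 TPM, with Creb3 at 12.5 and 19.9 TPM, Crebzf at 8.96 and 7.86 TPM and the protease gene Mbtps1 at 6.15 and 8.12 TPM, while Creb3l1 and Creb3l4 had 0 counts. Of 9 stress death genes 6 were detected with a median of 2.73 TPM, from Bcl2l11 at 12.7 and 11.8 TPM and Casp12 at 5.93 and 5.25 TPM to Bbc3 at 0.29 and 0.84 TPM and Tnfrsf10b at 0.44 and 0.52 TPM.

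Of these 121 genes, 101 had a mean of at least 1 TPM and 5 of them were apart between the replicates in TPM, beside 12.4% of all genes with that mean. All 5 were higher in replicate 2 on this scale, on which 74.0% of coding genes with that mean had a ratio above 0. They were Asns, encoding asparagine synthetase, at 3.14 and 9.29 TPM, Ddit4 at 0.41 and 1.67 TPM, Sars, Nck1 at 6.82 and 16.0 TPM, and Atf6b. In TMM-scaled counts the log2 ratio was 1.41 for Asns and 1.70 for Ddit4, and it was under 1 for Sars (0.49), Nck1 (0.68) and Atf6b (0.79). On that scale 2 of the 101 genes were over 2-fold higher in replicate 2, Asns and Ddit4, and 2 were over 2-fold higher in replicate 1, Psph and Bloc1s1, at -1.09 and -1.07. Of all 11018 genes with a mean of at least 1 TPM, 10.1% were over 2-fold apart in either direction on the TMM scale. Psph, a serine synthesis gene named here after its values were seen, lay at 4.26 and 2.62 TPM on 480 and 392 counts. Asns, Ddit4 and Psph are on the ATF4 target list, as is Sars, which was apart in TPM but under 2-fold on the TMM scale. This is the longest of the pathway lists, with 28 genes and a median TMM log2 ratio of 0.19. Psph went the opposite way to Asns and Ddit4. Whether the list held more genes over 2-fold apart than other genes did was not tested. Atf4 itself was level in TPM and at -0.27 on the TMM scale, and its part in these differences was not tested.

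**Figure D5:**
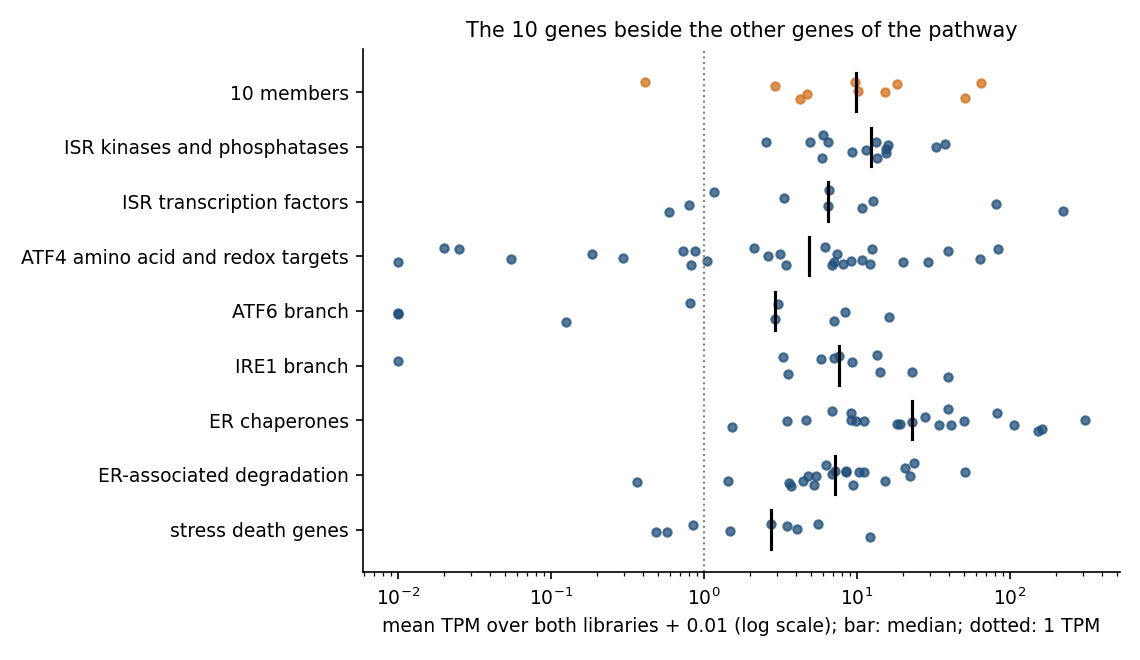
Mean TPM + 0.01 of the 10 members and of the other pathway genes on a log axis, by list, 1 point per gene, with a bar at each median and a dotted line at 1 TPM. ER chaperones lie highest, with a median of 23.1 TPM, and the ATF4 targets spread from genes near 0 to Phgdh at a mean of 83.7 TPM.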

How the data were processed

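Gene and transcript tables of 2 HSC libraries, 1 group, were used. Per the file headers they hold expected counts, which are estimates and may be fractions of a read, and TPM and FPKM. The deposited TPM interval bounds were treated as a score, since their level is not stated there. The deposited isoform percent gives each transcript's part of its gene's TPM. Per the sample text files, mm10 and GENCODE M4 were used; the software that aligned and counted the reads is not named in the sources used here.

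Symbols, transcript names and positions came from GENCODE M21 (GRCm38), joined on the versionless identifier, which matched 42462 of the 43346 genes. Spike-in sequences (97) were left out. The total count was 27901074 in replicate 1 and 48490188 in replicate 2. Levels were described in TPM. Replicate ratios were log2 ratios of TPM, or of counts scaled by TMM (edgeR 4.0.16) or by size factors (DESeq2 1.42.0) over 13918 genes, each after adding 0.1, and no count test was run. Detection meant at least 1 TPM in both libraries. Every member is named, with the 4 highest and 2 lowest genes of each pathway list by mean TPM and those apart between replicates, except that some items are not reported here. The members and lists were chosen with earlier results of these data known. Python 3.11.15 and R 4.3.3 were used. The 2-fold rule for genes apart was tried on simulated counts, in a separate version of the code. The isoform, leader and promoter steps were not tried on simulated data. Alternatives covered other folds, posterior mean TPM, other scalings, other detection minimums and shares of counts.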

Additional observations from a re-analysis of the deposited data

How the results depend on the processing

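The 1 member apart between the replicates, Ern1, was no longer apart in any of 4 other scalings: the count was 0 with TPM rescaled over protein-coding genes, 0 with TMM-scaled counts, 0 with DESeq2 size factors and 0 with CPM, the last chosen after seeing the data. The Ern1 log2 ratio of replicate 2 over replicate 1, 1.20 in TPM, was 0.89 with TPM rescaled over coding genes, under the 2-fold limit, and reversed to -0.063 with TMM, -0.060 with DESeq2 size factors, -0.056 with CPM and -0.017 for Ern1-201 alone, the last 2 being alternatives chosen after seeing the data. By construction, count scalings do not divide by the effective length. The number of ordered pairs was 42 and ran from 36, when a 1.5-fold gap was asked for, to 44. Members detected ran from 6 at 5 TPM to 10 with TPM rescaled over coding genes, and pathway genes detected from 71 to 111. The same transcript led in 8 of 10 genes by share of counts, against 6 by TPM. Leaving out a replicate leaves no comparison between replicates, and with 2 libraries in 1 group the SD rests on 2 values. Depth limits Trib3 most, at 66 and 42 counts.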

Other observations

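Some low genes of the pathway lists stood far apart between the libraries, and they were picked after their values were seen. Gdf15, a secreted stress cytokine, had 0 counts in replicate 1 and 52 in replicate 2, which is at least 9.97-fold higher in CPM against the floor of 3 counts per library. Derl3, an ER degradation gene, had 9 and 88 counts, which is 5.63-fold higher in replicate 2 in CPM. Creb3l3, a membrane-bound relative of ATF6, went the other way, with 40 and 2 counts. That is 23.2-fold lower in CPM with the floor of 3 counts applied. Its TPM bounds overlapped, at 0.191 to 0.649 in replicate 1 and 0.0151 to 0.443 in replicate 2. Trib3 likewise had fewer counts in replicate 2, at 66 and 42, which is 2.73-fold lower in CPM. The ATF4 target Psph also had fewer, at 480 and 392. Asns, with 453 and 2117 counts, and Ddit4, with 53 and 312, had more. In CPM they were 2.69-fold and 3.39-fold higher in replicate 2. None of these was tested, since each library is a single sample.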
